A study of Mus musculus with 15 samples.

Results

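The embryonic stem cell miRNAs of 2 gene clusters, that of miR-290 to miR-295 (the miR-290 cluster) and that of miR-302 and miR-367 (the miR-302 cluster), were read in mouse pancreatic α- and β-cell lines. Every assay named miR-290 to miR-295, miR-302 or miR-367, with any letter or arm suffix, was taken whatever its value, which gave 21 of the 584 miRNA assays on a pair of TaqMan low density array cards. Of these, 13 belonged to the miR-290 cluster and 8 to the miR-302 cluster. The prefix of the assay names, as in mmu-miR-293, mmu-miR-294, mmu-miR-295, mmu-miR-302b and mmu-miR-367, is left out in what follows. Card A held 12 of them with 1 well each, and card B held the other 9 with 2 wells each. The value read from a well is its threshold cycle (Ct), which is lower when there is more miRNA, and a well with no signal within 40 cycles is called undetermined.

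The 15 samples formed 5 conditions with 3 replicates each. The αTC1-6 line (aTC1-6 in the labels), derived from a mouse glucagonoma, was collected untreated at 24 h and at 48 h. It was also collected at both times after exposure to a cytokine mixture of 50 IU/ml IL-1β, 1000 IU/ml IFN-γ and 1000 IU/ml TNF-α. The βTC1 line (bTC1 in the labels), derived from a mouse insulinoma, was collected untreated at 24 h only. Both are tumour lines, each represents its cell type by 1 line, and the 24 h untreated αTC1-6 samples are shared by the steady state comparison, the 24 h cytokine comparison and the comparison over time. Islet identity was checked by miR-375, the most abundant islet miRNA, whose Ct lay between 13.4 and 15.98 in all 15 samples, and by miR-7a, whose Ct lay between 19.9 and 23.0. The cards hold no mRNA assays, so glucagon and insulin were not measured.

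In mouse embryonic stem cells the transcript of the miR-290 cluster is the most abundant source of miRNAs, and the miR-302 cluster is transcribed under the control of the pluripotency factors Oct4 and Sox2. The main strands of both clusters largely share 1 seed, the stretch at the 5′ end that pairs with target transcripts. Through it they are known to lower inhibitors of the cell cycle such as p21 (Cdkn1a) and to favour self-renewal. Both clusters are normally silenced when cells differentiate, while the let-7 family rises and acts in the opposite direction. In the endocrine lines read here many values of these assays were late or undetermined, which sets how they can be used.

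Mature sequences were found for 19 of the 21 assays in the RefSeq annotation of the mouse assembly GRCm38.p6, and miR-292-3p and miR-302a are named only. The 5 main strands that share the seed AAGUGCU are shown first, since they are the strands for which the clusters are known, and capitals mark bases 2 to 8, the seed.
miR-291a-3p: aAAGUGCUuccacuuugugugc
miR-294: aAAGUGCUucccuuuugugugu
miR-295: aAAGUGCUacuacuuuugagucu
miR-302b: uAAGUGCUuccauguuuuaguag
miR-302d: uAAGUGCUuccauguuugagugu

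Of the 1679 mature mouse miRNAs in that table, which is not complete, 5 carry this seed, and all 5 are cluster strands. The strands miR-302b and miR-302d shared an unbroken run that, seed included, reached 17 bases, so closely related strands had to be told apart by their 3′ ends. The remaining main strands are given to show where their seeds depart from it. The seed of miR-302c is shifted by 1 base, those of miR-290-3p and miR-291b-3p differ in the last base, and those of miR-293 and miR-367 are different sequences.
miR-302c: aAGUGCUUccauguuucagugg
miR-290-3p: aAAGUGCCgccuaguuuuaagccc
miR-291b-3p: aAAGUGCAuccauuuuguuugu
miR-293: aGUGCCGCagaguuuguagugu
miR-367: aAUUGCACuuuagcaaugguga

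The opposite strands do not hold this seed. They are shown for the assays of card B on which a result below turns, together with miR-291b-5p, which shared a run of 20 bases with miR-291a-5p, so that reads from these assays may not be fully separate.
miR-291a-5p: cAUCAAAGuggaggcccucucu
miR-291b-5p: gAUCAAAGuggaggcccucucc
miR-292-5p: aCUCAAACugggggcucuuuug
miR-294*: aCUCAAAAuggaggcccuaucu
miR-302c*: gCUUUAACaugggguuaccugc

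In GRCm38.p6 the matched mature strands of the miR-290 cluster spanned chr7:3218639-3220837 on the forward strand, 2199 bases that overlap the non-coding RNA gene D7Ertd143e and part of Nlrp12. Those of the miR-302 cluster spanned chr3:127545238-127545800, 563 bases within the bounds of Larp7, whose protein binds the 7SK RNA, and of the non-coding RNA Gm51018. The deposited tables themselves hold no coordinates.

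Samples with a Ct were counted for every assay in both deposited tables, the normalized one and the non-normalized one. On card B the counts are not alike, since the non-normalized table repeats 1 value for both wells of an assay (135 of 135 pairs of the cluster assays were identical) and the normalized table holds 2 separate readings, of which either was enough here. Of the 21 assays, 0 had a Ct in all 15 samples of the normalized table, against 279 of the 563 other miRNA assays (49.6%). Only miR-294 (1 of the 21) had a Ct in all 15 of the non-normalized one, against 363 of the others (64.5%). The median assay of the clusters had a Ct in 8 samples, and the median of the others in 14. There were 2 assays of the clusters without any Ct in the normalized table, miR-302c and miR-302a*. Of these, miR-302c had a single Ct in the non-normalized table, 23.0 in replicate 3 of βTC1, and miR-302a* had none in either.

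Where a Ct was obtained it was late. The 157 values of the cluster assays in the normalized table had a median Ct of 33.0, against 26.6 for the 6784 values of the other assays. A Ct above 30 made up 77.7% of the former and 22.6% of the latter, and a Ct above 35 made up 24.8% and 2.92%. The difference was present on each card, with medians of 33.4 against 25.97 on card A and 32.0 against 27.6 on card B. The reference miRNA, miR-26a, was read between Ct 16.98 and 18.98 in all samples, many cycles before these medians.

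**Figure D1:**
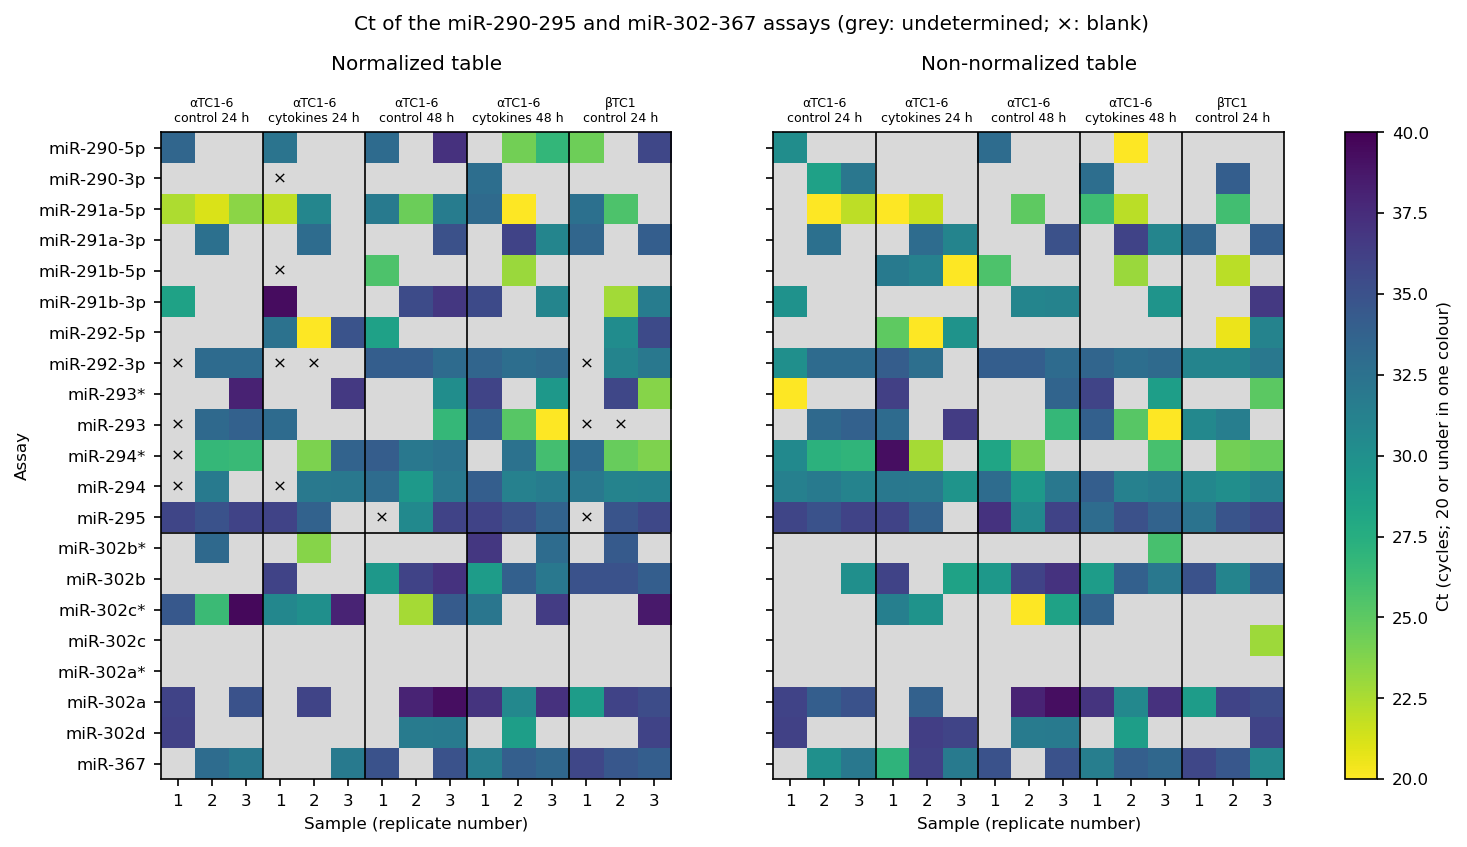
Ct of each of the 21 cluster assays (rows) in each of the 15 samples (columns), normalized table, with the colour scale in cycles and the empty kinds of cell marked in the key. For assays with 2 wells the cell is the mean of both, with an undetermined well at 40. No row is filled throughout, and most filled cells are above Ct 30.

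The main strand miR-294 was the most regularly detected member. In the normalized table its Ct in untreated αTC1-6 cells at 24 h was blank in replicate 1, 31.8 in replicate 2 and undetermined in replicate 3. In βTC1 cells it was 32.0, 31.0 and 31.1, which is 31.4 ± 0.549 (SD, n = 3). It was 32.9, 29.2 and 32.0 in untreated αTC1-6 cells at 48 h, and the 2 sets of values overlap. With cytokines it was 31.9 and 32.0 in replicates 2 and 3 at 24 h, with replicate 1 blank, and 34.0, 31.2 and 31.6 at 48 h.

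The non-normalized table gave miR-294 a Ct in every sample, so its level could be ordered across conditions there. Relative to miR-26a, as negative ΔCt on the log2 scale, the level was −12.46 ± 1.07 in βTC1, −12.92 ± 1.16 in cytokine-treated αTC1-6 cells at 24 h and −13.30 ± 0.96 in untreated αTC1-6 cells at 24 h (SD, n = 3 each). It was −13.40 ± 1.05 in untreated and −14.39 ± 1.05 in treated αTC1-6 cells at 48 h. Each step between neighbours in this order was smaller than the SD of either group. The replicate numbers pair the cytokine samples, and at 48 h the treated value was lower in 3 of 3 pairs, with differences of −1.58, −1.28 and −0.10. With the pairs as a block the mean difference was −0.99 (SE 0.41, limma adjusted p = 0.329).

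The main strands miR-292-3p and miR-295 of the same cluster came next. In untreated αTC1-6 cells miR-292-3p was blank, 33.0 and 33.0 at 24 h and 34.0, 34.0 and 33.0 at 48 h. It was 33.5, 32.8 and 33.1 in treated cells at 48 h, and blank, 30.9 and 32.0 in βTC1. Cytokine-treated cells at 24 h had no value for miR-292-3p in the normalized table, with 2 blanks and 1 undetermined well. The non-normalized table held 34.1 and 32.7 for the 2 blanks, and 30.04 and 30.99 for those of the untreated αTC1-6 and βTC1 samples at 24 h, so that the assay had a Ct in 14 samples there against 10.

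Later values were given by miR-295, with a median Ct of 35.4 over 12 samples. In untreated αTC1-6 cells at 24 h it was 35.8, 34.96 and 36.0, or 35.6 ± 0.551 (SD, n = 3). In βTC1 it was blank, 34.8 and 35.7, and in untreated αTC1-6 cells at 48 h it was blank, 30.5 and 36.0. The values of all 3 conditions overlap. Treated cells had 36.0, 33.7 and undetermined at 24 h and 36.0, 35.1 and 33.6 at 48 h.

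The other main strands of the miR-290 cluster were read in fewer samples. A Ct was present for miR-291a-3p in 7 samples, between 30.9 and 36.0, and for miR-293 in 7 samples, between 8.0 and 33.9. Both appeared in at least 1 replicate of αTC1-6 and neither in all 3 replicates of any condition, except miR-293, which had 33.9, 25.2 and 8.0 in cytokine-treated αTC1-6 cells at 48 h. These 3 replicates span most of the range of the instrument. The main strand miR-290-3p had a single Ct of 32.8, in replicate 1 of cytokine-treated αTC1-6 cells at 48 h. The opposite strand miR-291b-5p, also on card A, had Cts of 25.6 in 1 untreated and 23.0 in 1 treated αTC1-6 sample at 48 h. The non-normalized table added 31.8, 31.2 and 4.47 in treated αTC1-6 cells at 24 h and 22.0 in 1 βTC1 sample.

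Of the main strands of the miR-302 cluster, miR-302b was read in 1 line and not in the other at 24 h in the normalized table. It was undetermined in all 3 untreated αTC1-6 samples at 24 h and was 34.9, 34.96 and 34.0 in βTC1 (34.6 ± 0.555, SD, n = 3). In untreated αTC1-6 cells at 48 h it was read in all 3 replicates, at 29.3, 36.0 and 37.1. In cytokine-treated cells it was 36.0 in replicate 1 and undetermined in the others at 24 h, and 28.97, 33.8 and 32.0 at 48 h. The βTC1 values lie inside the range of the untreated αTC1-6 values at 48 h, and at 24 h the lines do not overlap when undetermined wells count as 40. In the non-normalized table, αTC1-6 replicate 3 had a Ct of 30.04 at 24 h, earlier than the βTC1 values there of 34.9, 30.96 and 34.0, so the lines overlap.

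The strand miR-302a had a Ct of 36.0, undetermined and 34.96 in untreated αTC1-6 cells at 24 h, and 28.9, 36.0 and 35.4 in βTC1. At 48 h it was undetermined, 38.0 and 39.3 in untreated and 37.0, 30.6 and 37.1 in treated αTC1-6 cells, the former all later than the latter. For miR-367, the member with a different seed, the values were undetermined, 33.0 and 32.0 in untreated αTC1-6 cells at 24 h and 35.7, 34.5 and 34.0 in βTC1. At 48 h miR-367 was 34.995, undetermined and 34.95 in untreated and 31.5, 33.9 and 33.4 in treated αTC1-6 cells. A Ct was present for miR-302d in 5 samples only, between 28.8 and 36.2.

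**Figure D2:**
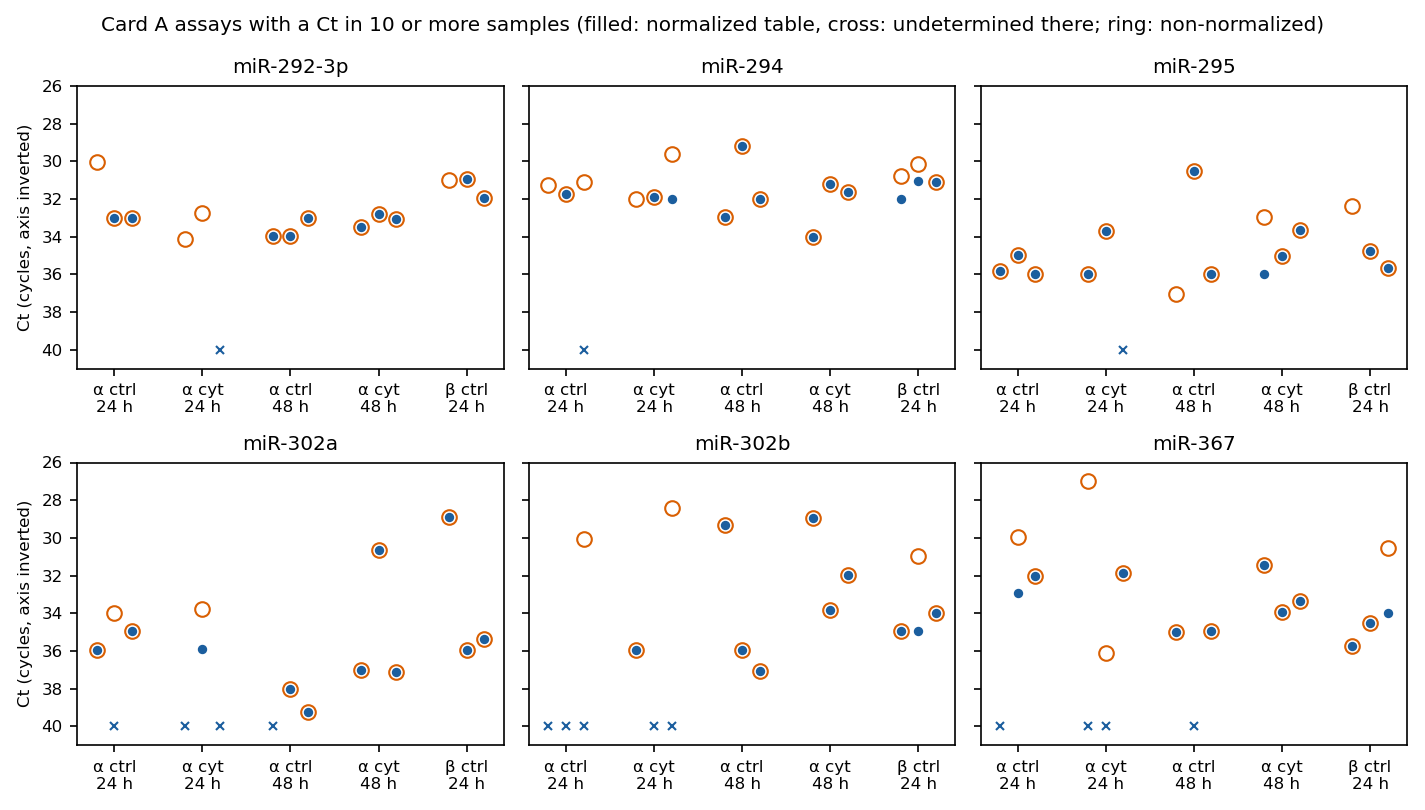
Ct by condition for the 6 card A assays with a Ct in at least 10 samples of the normalized table, with filled points for the normalized table, rings for the non-normalized one and crosses at 40 for undetermined wells. Blank cells are not drawn. Rings without a filled point, Cts held by the non-normalized table only, lie almost all in the 24 h conditions.

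The 2 tables gave a different picture of how detection varied. In the normalized table the card A assays of the clusters had a Ct in 38.9% of values in untreated αTC1-6 cells at 24 h and in 25.0% with cytokines. The share was 55.6% in untreated and 72.2% in treated αTC1-6 cells at 48 h, and 52.8% in βTC1. The other card A assays moved in the same order, with 66.9%, 63.9%, 85.0%, 88.2% and 70.3%. In the non-normalized table the shares of the cluster assays were 58.3%, 61.1%, 58.3%, 72.2% and 72.2%, and those of the other assays 86.0%, 87.6%, 86.3%, 88.8% and 90.9%.

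The lower shares at 24 h were thus seen mainly in the normalized table. At 24 h, 27 of the 69 Cts that the non-normalized table held for the card A cluster assays (39.1%) were missing from the normalized one, 10 of them as blanks. For the other card A assays 692 of 2881 (24.0%) were missing. At 48 h 1 of 47 (2.13%) was missing for the cluster assays and 21 of 1907 (1.10%) for the others. Since the time points differ in this way, the time in culture and the handling of the normalized table cannot be told apart in any difference between 24 h and 48 h. The filter behind the missing values is not given in the sources used here.

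The card B assays were read in 2 wells each, which shows how repeatable their readings were over all Ct levels. Over the 128 pairs of wells of the 9 cluster assays with neither well blank, both wells had a Ct in 23, 1 well in 44 and neither in 61. Of the pairs with any Ct, 65.7% thus had it in 1 well only, against 11.7% for the other card B miRNAs, where both wells had a Ct in 1677 pairs, 1 well in 222 and neither in 170. Where both wells had a Ct, they differed by a median of 1.54 cycles for the cluster assays and 0.294 for the others. They lay within 1 cycle of each other in 8 of 23 pairs (34.8%), against 77.5% of the others. They lay more than 5 cycles apart in 26.1%, against 2.27%. These pairs mix early and late wells. Both wells were above Ct 30 in only 4 of the 23 cluster pairs, with a median difference of 0.665 cycles, against 0.780 over 297 such pairs of the others.

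Very early readings were also more common. A Ct under 12, earlier than that of miR-375 in any sample, was read in 9 of the 180 wells of the cluster assays that had a Ct (5.0%), against 53 of 8461 wells of the others (0.626%). In the non-normalized table the counts were 5 of 159 (3.14%) and 65 of 7431 (0.875%). Besides the Ct of 8.0 for miR-293, these wells included 3 of miR-291a-5p at 3.80, 4.91 and 4.81, in 3 different αTC1-6 samples, and 2 of miR-290-5p at 8.55 and 8.82. Such a well weighs heavily in a mean of 3 replicates.

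Among the card B assays, which are mostly the opposite strands, miR-291a-5p and miR-294* had a Ct in the most samples, 12 each. The mean Ct of the wells of miR-291a-5p was 22.4, 21.1 and 23.5 in untreated αTC1-6 cells at 24 h, and 32.6, 25.6 and undetermined in βTC1. The 22.4 averages a well at 4.91 with an undetermined one, and the 32.6 a well at 25.3 with an undetermined one. The mean was 31.8, 24.5 and 31.6 in untreated αTC1-6 cells at 48 h, all later than the 3 means at 24 h. Replicates 1 and 3 each had 1 undetermined well at 48 h. The wells with a Ct there read 23.6, 25.0, 24.0 and 23.2, which overlap those at 24 h. With cytokines the mean was 21.9, 30.8 and undetermined at 24 h, the 21.9 from a well at 3.80 beside an undetermined one. At 48 h it was 33.1, 13.4 and undetermined, which spans nearly the whole range of the instrument within 1 condition. The 13.4 averages wells at 22.1 and 4.81.

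The strand miR-302c* had a Ct in 11 samples, between 22.7 and 39.6. It was 34.5, 26.4 and 39.6 in untreated αTC1-6 cells at 24 h and undetermined, undetermined and 38.7 in βTC1. Each of these αTC1-6 values averages 1 well, at 29.1, 12.7 and 39.2, with an undetermined well at 40. The non-normalized table held no Ct for any of them. A Ct was present for miR-290-5p and miR-291b-3p in 8 samples each, for miR-293* in 7, for miR-292-5p in 6 and for miR-302b* in 5. The 3 strands with the seed CUCAAAC, miR-290-5p, miR-292-5p and miR-293*, had a Ct in 6 to 8 samples of the normalized table. Counting only the first well of each assay, the one that the non-normalized table repeats, the 9 card B assays had 37 Cts in the normalized and 43 in the non-normalized table. Of the 37, 36 were the same in both within 0.01 cycles.

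At steady state, untreated αTC1-6 cells were compared with βTC1 cells at 24 h. Differences are given on the log2 scale of negative ΔCt relative to miR-26a, with an undetermined well at Ct 40, and were tested by limma with Benjamini-Hochberg adjustment within each card. An assay was tested when at least 3 of the 6 samples had a Ct, which 13 of the 21 did. The test called 1 of these 13 (7.69%), where it called 142 of all 480 assays tested (29.6%). The median difference of the 13 was −2.09 and that of all 480 was −0.52, with 10 of the 13 below 0, that is lower in αTC1-6. That median was −0.52 with Ct above 35 set to 35, −0.45 with undetermined wells as missing and −0.88 from the non-normalized table. It was −1.12 and −1.36 without αTC1-6 replicates 1 and 3, and −0.50 and −0.91 without βTC1 replicates 2 and 3. The median SE was 2.52 for the cluster assays and 0.71 for all assays. At an unadjusted p under 0.05 there were 2 of the 13, where 37.9% of all assays passed, and groups did not overlap for 4 of the 13, where 45.8% of all assays did not. An assay read mainly in 1 line passes the filter through that line, so these counts are given as a description.

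The assay called was miR-302b, which was lower in αTC1-6, as were 17.7% of all assays, by limma (log2 difference −5.52, SE 0.55, adjusted p = 0.000427). The exact two-sided permutation test gave p = 0.1, the smallest that 3 against 3 samples allow. The assay met the filter only through the 3 βTC1 samples, so that it had to differ once undetermined wells were put at 40, and the size of the difference is set by that value. With every Ct above 35 set to 35 it was −0.52 (adjusted p = 0.521), and from the non-normalized table, where 18.7% of all assays were called and replicate 3 of αTC1-6 had a Ct of 30.04, it was −3.53 (adjusted p = 0.528). Against the 48 h αTC1-6 controls, where 28.1% of all assays were called, it was 0.27 (adjusted p = 0.952), and without any 1 of the βTC1 replicates too few samples had a Ct for a test.

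The largest other difference at steady state was that of miR-291a-5p, 10.24 higher in αTC1-6 (SE 3.87, adjusted p = 0.219). Its 3 mean values in αTC1-6 are all earlier than those of βTC1, but that of replicate 1 rests on a well at 4.91 beside an undetermined one. Leaving out wells with a Ct under 12 brought the difference to 4.39. For miR-294 the difference was −5.10 (SE 2.52, adjusted p = 0.180), most of it from the single undetermined well of αTC1-6 replicate 3, which had a Ct of 31.1 in the non-normalized table. For miR-293* and miR-302c* the differences were −6.36 and 5.91, with SEs of 3.93 and 3.22. The assays with the smallest differences, miR-294* (0.01), miR-367 (−0.38) and miR-295 (−0.44), had SEs between 0.89 and 2.98.

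**Figure D3:**
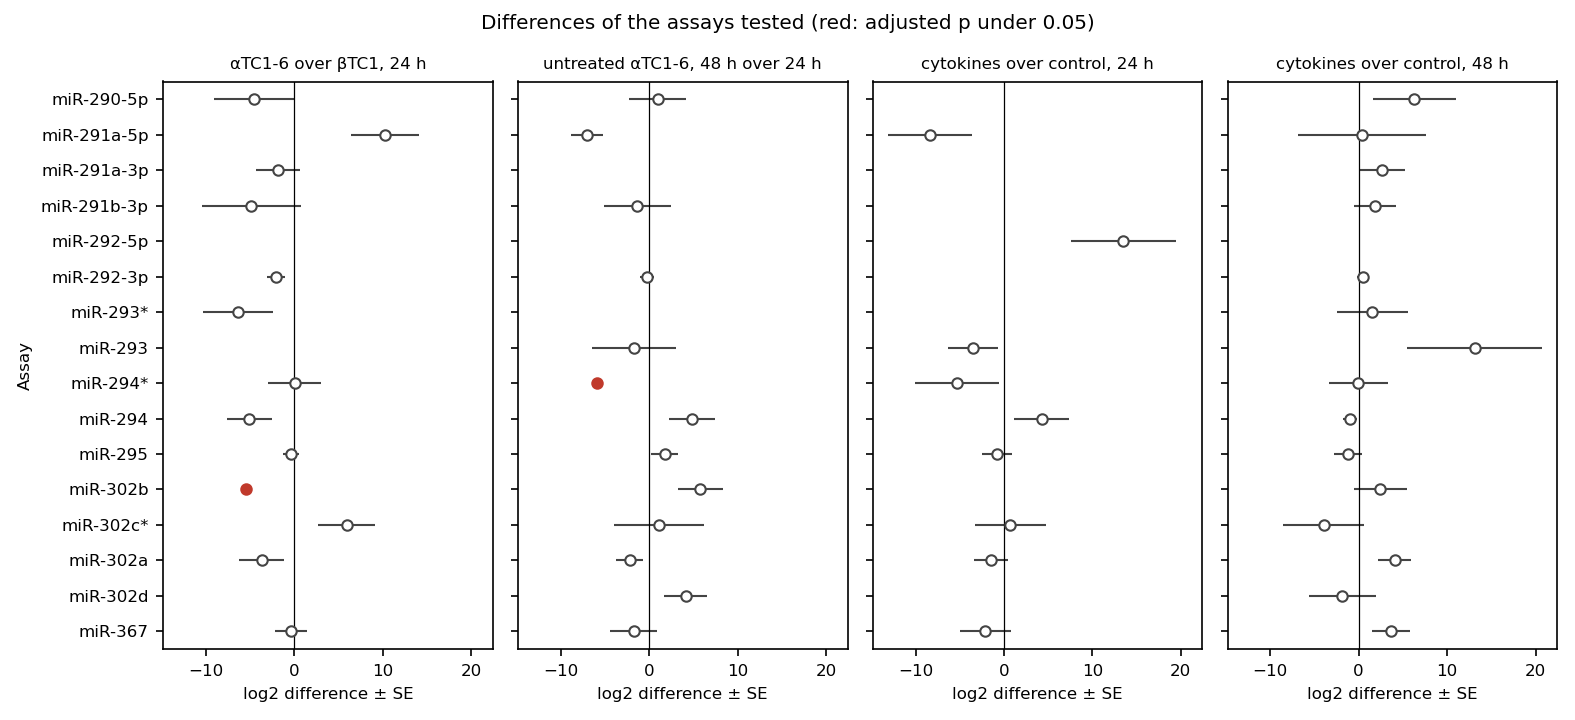
Log2 difference of negative ΔCt (relative to miR-26a) with its standard error for each cluster assay tested in each comparison, with calls at an adjusted p under 0.05 marked in red. The calls are miR-302b at steady state and miR-294* over time, and most error bars span several log2 units.

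Markers of some other cell types also differed in level between the lines in the normalized table. The 3 exocrine pancreas miRNAs miR-216a, miR-216b and miR-217 had a Ct in all 3 βTC1 samples, between 21.6 and 27.0, and in none of the 24 h αTC1-6 samples of the normalized table. The non-normalized table held a Ct for each in 1 untreated αTC1-6 sample at 24 h, and for miR-216b in 2 treated ones. At 48 h miR-216b had a Ct in all 3 untreated αTC1-6 samples, between 30.2 and 36.7, and miR-216a was 20.9 in 1 treated sample. The summed level of the 3 miRNAs, on the log2 scale relative to miR-26a, lay between −5.26 and −3.35 in βTC1. The hepatocyte miRNA miR-122 had a Ct in 2 βTC1 samples and in no 24 h αTC1-6 sample of the normalized table, while the non-normalized one held a Ct in all 3 samples of both lines. The striated muscle list (3 of 3 on the cards) summed to between −11.64 and −10.07 in βTC1 and between −13.70 and −12.95 in untreated αTC1-6 cells at 24 h. The blood list (3 of 4 on the cards) lay between −12.97 and −11.03 in βTC1 and between −13.89 and −12.35 in those cells, ranges that overlap. Their part in the difference of miR-302b was not tested.

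Over time in untreated αTC1-6 cells, 48 h was compared with 24 h. Again 13 cluster assays were tested, and 1 (7.69%) was called, where 29 of 489 (5.93%) were called among all assays. At an unadjusted p under 0.05 there were 2 of the 13 and 8.79% of all assays, and the groups did not overlap for 4 of the 13 and 14.7% of all assays. The call was miR-294*, lower at 48 h, a direction called for 0.409% of all assays, by limma (log2 difference −5.92, SE 0.44, adjusted p = 0.0194, with an exact two-sided permutation p of 0.1). Its mean Ct was blank, 26.7 and 26.4 at 24 h and 34.1, 32.0 and 32.4 at 48 h.

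The individual wells show what this difference rests on. At 24 h the 2 wells of miR-294* read 27.1 and 26.3 in replicate 2, and 26.9 and 25.9 in replicate 3. At 48 h each replicate had 1 undetermined well, and the other read 28.3, 24.0 and 24.7. Leaving out any sample with a value ended the call (−6.14 to −5.72, adjusted p between 0.0795 and 0.156). With the mean taken over the wells with a Ct, the difference was 1.25 in the other direction (adjusted p = 0.911). From the non-normalized table, which holds the first well only, it was −2.67 (adjusted p = 0.995). From that table miR-302a was called instead, at −4.22 (adjusted p = 0.0223), where 0.385% of all assays were called.

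The main strand miR-302b was 5.79 higher at 48 h (SE 2.55, adjusted p = 0.538) and miR-294 was 4.86 higher (SE 2.60, adjusted p = 0.750). Both had a Ct in all 3 replicates at 48 h, against 0 and 1 at 24 h. In the opposite direction, miR-291a-5p gave −7.03 (SE 1.80, adjusted p = 0.383), and its groups did not overlap. Leaving out wells with a Ct under 12 brought this to −1.18. None of the 3 passed the test.

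The response to cytokines in αTC1-6 cells was compared at 24 h and at 48 h. None of the cluster assays was called by limma in either, with 9 tested at 24 h and 15 at 48 h, and 0 of them had an unadjusted p under 0.05. Among all assays 1 of 445 (0.225%) was called at 24 h and 3 of 534 (0.562%) at 48 h, with 20 (4.49%) and 60 (11.2%) at an unadjusted p under 0.05. These counts come from fits without the pairs. With the pairs as a block, 0 of all assays were called at either time. In those fits 1 cluster assay at each time had an unadjusted p under 0.05, beside 47 of 445 and 121 of 534 of all assays. Calls were few in the whole table, and the cluster assays had wider errors, with a median SE of 3.15 at 24 h and 2.99 at 48 h against 0.61 and 0.62 for all assays. Groups did not overlap for 2 of 9 and 1 of 15 cluster assays, beside 13.3% and 19.3% of all assays.

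At 24 h the largest difference was that of miR-292-5p, which was undetermined in all 3 untreated samples and had mean Cts of 32.5, 12.8 and 34.9 with cytokines (log2 difference 13.49, SE 5.95, adjusted p = 0.806). The second of these held a well at 10.2. Conversely, miR-291a-5p was lower with cytokines by a log2 difference of −8.35 (SE 4.79, adjusted p = 0.874). The differences of the 5 main strands tested at 24 h lay between −3.54 for miR-293 and 4.26 for miR-294, and none exceeded 1.5 times its SE.

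At 48 h, 10 of the 15 differences were above 0, that is higher with cytokines, with a median of 1.56 where that of all assays was −0.51. That median was 0.47 with a Ct required in every sample, which left only 3 cluster assays, and 0.76 with only the wells with a Ct averaged. It was 2.43 with undetermined wells as missing, 2.00 with median centring and 2.08 with U6 and small nucleolar RNAs as reference. It was 0.67 without treated replicate 3 and 2.01 without treated replicate 2, and 0.81 and 0.86 without untreated replicates 1 and 3. The strands of the miR-302 cluster gave 4.07 for miR-302a (SE 1.87, adjusted p = 0.640), 3.64 for miR-367 (SE 2.16, adjusted p = 0.721) and 2.43 for miR-302b (SE 2.99, adjusted p = 0.829). The groups did not overlap for miR-302a (exact two-sided permutation p = 0.1), while miR-302d went the other way at −1.84 (SE 3.82). The largest difference, 13.13 for miR-293, had an SE of 7.61 and rested in part on the Ct of 8.0. The best measured members at 48 h, miR-292-3p and miR-294, with a Ct in all 6 samples, gave 0.47 (SE 0.66) and −0.99 (SE 0.80).

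Whether the response differed between the times was tested as an interaction over the 12 αTC1-6 samples. It could be tested for 12 cluster assays, of which 0 were called and 1 had an unadjusted p under 0.05, while 1 of 477 of all assays (0.21%) was called and 3.98% had such a p. The lowest p was that of miR-292-3p, whose response was 7.11 higher at 48 h than at 24 h (SE 1.09, limma adjusted p = 0.0706). This rests on the 1 undetermined well that stood for treated cells at 24 h, and from the non-normalized table, with 2 further Cts there, it was 3.86 (adjusted p = 0.996).

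Related miRNAs were much more abundant on the same cards. The miR-17 family, which promotes proliferation, holds the bases of the cluster seed shifted by 1 position, as in miR-17 shown here with its own seed in capitals.
miR-17-5p: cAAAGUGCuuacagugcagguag

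All 6 listed members of the miR-17 family were on the cards, 4 with a Ct in all 15 samples and medians between 19.9 and 28.5. At steady state 4 of 6 were called lower in αTC1-6 and 0 higher, where 17.7% of all assays were called lower, with a median of −3.86 beside −0.52 for all assays. For miR-20a the difference was −17.23 and for miR-20b −12.84, sizes that include undetermined wells at 40. The non-normalized table held a Ct for miR-20a in 15 samples, against 12 in the normalized one, and for miR-20b in 13, against 10. For miR-17 and miR-106a the difference was −4.13 and −3.59. None of those tested was called in the other comparisons, with 5 of the 6 tested for cytokines at 24 h (miR-20b was not) and 6 elsewhere. The miR-25 family shares the seed of miR-367, and 1 of its 4 members was called at steady state, miR-92a, at −2.02 (limma adjusted p = 0.0129).

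The 9 members of the let-7 family, which opposes the cluster miRNAs in embryonic stem cells, were abundant in both lines, with median Cts between 19.0 and 22.0. In no comparison was any of them called, while 29.6% of all assays were called at steady state. Their median at steady state, −0.65, was close to that of all assays. Of all 480 assays tested at steady state, 57 were called higher in αTC1-6 and 85 (17.7%) lower. Of the 4 listed miRNAs known to target transcripts of pluripotency factors, miR-134 (4.46) and miR-296-5p (6.82) were called higher there. Called lower were miR-145 (−1.90) and miR-470 (−11.51). Only 3 of the 6 samples had a Ct for miR-470, so that its size is set by undetermined wells at 40. None of those tested was called elsewhere, and miR-470 was tested only in the 48 h cytokine comparison besides.

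The patterns most like those of the main strands were sought in the rest of the cards, using assays that were read wherever the strand was read. The measure was Pearson's r of negative ΔCt, given as a description without a test. The 3 miRNAs most like miR-294 over 12 samples were miR-804 (r = 0.861), miR-331-5p (r = 0.797) and miR-223 (r = 0.793). For miR-292-3p over 10 samples they were miR-206 (r = 0.870), miR-125b-5p (r = 0.869) and miR-106a (r = 0.857). For miR-295 over 12 samples they were miR-590-5p (r = 0.631) and the rat-named assays rno-miR-29b-1* (r = 0.583) and rno-miR-207 (r = 0.565). The main strands of the miR-302 cluster follow. For miR-302a over 11 samples they were miR-145 (r = 0.729), miR-206 (r = 0.669) and miR-878-5p (r = 0.662). For miR-302b over 10 samples they were miR-30a (r = 0.702), miR-138* (r = 0.639) and miR-199a-3p (r = 0.588). For miR-367 over 11 samples they were miR-21* (r = 0.688), miR-138* (r = 0.666) and miR-155 (r = 0.658). The 3 are the highest of between 299 and 344 miRNAs compared for a strand, and all share the samples, the conditions and the subtraction of miR-26a. Other strands of the clusters were not among those compared.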

How the data were processed

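Total RNA was extracted with Trizol, reverse transcribed and preamplified with Megaplex primer pools, and read on TaqMan rodent miRNA cards A and B. The authors deposited a table of Ct values per well, and a normalized table with ΔCt, a log2 quantity, and with relative quantities, that is ratios equal to 2 to the power of −ΔCt. In the deposited log2 values miR-26a is 0 in every sample, so it was the reference in this table, although the study's methods speak of several reference genes. The non-normalized table gives the same value for both wells of a duplicated assay. Another deposited table holds the authors' own fold changes and was not used. Groups came from the labels, and replicates are described as independent.

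Here negative ΔCt was taken, wells of 1 assay were averaged with undetermined wells at Ct 40, and blanks were left out. An assay had a Ct where at least 1 of its wells did. Tests used limma 3.58.1 (lmFit, eBayes) in R 4.3.3 on the groups compared, with an adjusted p under 0.05 as the threshold, when 3 of 6 samples (6 of 12 for the interaction) had a Ct. The script was tested on simulated data. Alternatives concerned the reference, the undetermined wells, the filter, the table, the duplicate wells and the replicates. Depth does not apply to Ct values; late cycles limit precision. The cluster assays and the miRNA lists were chosen with earlier results of these data known. Every cluster assay was accounted for, and the 3 miRNAs most like it by r were found for each with a Ct in at least 6 samples and are named for the 6 main strands with a Ct in 10 or more.

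Replicate numbers paired the samples in both cytokine comparisons: same-numbered samples deviated together with r of 0.337, 0.355 and 0.539 at 24 h (over 329 assays) and 0.528, 0.574 and 0.621 at 48 h (over 410 assays). Adding the replicate number as a block to these fits left 0 cluster assays called.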

Additional observations from a re-analysis of the deposited data

How the results depend on the processing

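The limits come from late Ct values, undetermined wells at 40 and blanks. Of 846 values of the 62 differences under alternatives other than leaving out a replicate, 792 kept direction and side of the threshold, 10 kept the direction and lost the call, 4 gained a call, and 40 changed direction, 2 of them losing the call too. Of 377 values without 1 replicate, 332 kept both, 5 lost and 7 gained a call, and 33 changed direction. No cluster assay was called for cytokines at 24 h or 48 h under any alternative run, nor with the replicate block. Leaving out very early wells, requiring a Ct in both duplicate wells and averaging only wells with a Ct were alternatives chosen after seeing the data. Unless a value shows it, the cause of a change was not tested.

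The number of cluster assays called at steady state was 2 without a filter (miR-293 at 6.60 was added, from 1 undetermined βTC1 well beside 2 blanks, for which the non-normalized table held 30.6 and 31.4), and 0 with Ct above 35 set to 35, with undetermined wells as missing, from the non-normalized table and against the 48 h controls. Without 1 replicate it lay between 0 and 2, with miR-294 added without replicate 2 of αTC1-6, miR-291a-5p the call without replicate 2 of βTC1 and 0 without its replicates 1 or 3. With all 15 samples in 1 fit, miR-294 (−5.10) was called in place of miR-302b. Over time the number was 0 with median centring, without normalization, with U6 and small nucleolar RNAs as reference, with a Ct required in every sample, in 1 fit over all samples, with a trended prior variance, with both duplicate wells required and with only wells with a Ct averaged. Without 1 replicate it lay between 0 and 2, miR-294 and miR-302a being called without replicate 2 at 24 h. For the interaction it was 1 with median centring and without normalization (miR-292-3p at 7.19 and 7.54), and between 0 and 1 without 1 replicate.

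Among all assays, the steady state count of 142 fell to 94 without 1 replicate and to 81 with a Ct in every sample. The count of 29 over time was 1 with a Ct in every sample, 2 with undetermined wells as missing, 2 from the non-normalized table, and 0 without any 1 replicate at 48 h. The scaling moved the median of all assays at steady state from −0.52 to −0.24 with median centring, where miR-302b stayed called at −5.23.

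Same-numbered samples deviated together with r of 0.282, 0.140 and 0.098 at steady state and 0.086, 0.050 and −0.027 over time, so they share only a number, and not every sample correlated best with its own number. With the replicate block 115 assays were called at steady state, among them miR-302b (adjusted p = 0.00636), while miR-294* turned to −2.81. Over time 23 assays and 0 cluster assays were called with the block.

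Directions turned as follows, on the log2 scale. With undetermined wells as missing, the values at steady state were 0.65 for miR-291a-3p and 1.67 for miR-367. For cytokines at 24 h they were 1.73 for miR-293, 1.10 for miR-295 and 0.97 for miR-367, and at 48 h 3.22 for miR-302d, −2.40 for miR-293* and 3.24 for miR-294*. Over time they were 7.13 for miR-293 and −2.22 for miR-290-5p. Against the 48 h controls miR-295 was 1.29, miR-302b 0.27 and miR-294* −5.91. With Ct above 35 set to 35, miR-367 was 1.04 at steady state, miR-295 and miR-302a were 0.61 and 0.18 for cytokines at 24 h, miR-294* was 1.61 at 48 h and miR-293 1.60 over time. With U6 and small nucleolar RNAs, miR-294* was −0.35 at steady state and 0.47 for cytokines at 48 h, and miR-295 was 0.50 for the interaction. For cytokines at 48 h miR-294* was 0.39 with median centring and 0.033 without normalization, and miR-291a-5p was −2.52 without very early wells. With only wells with a Ct averaged, miR-294* was −2.33 at steady state, miR-302c* −5.11 for cytokines at 24 h and miR-291a-5p −2.89 at 48 h. Over time the same setting gave −3.51 for miR-302c*, 1.25 for miR-294* and 1.22 for miR-291b-3p, and for the interaction 0.42 for miR-302c* and −1.54 for miR-294*. From the non-normalized table miR-367 and miR-291a-5p were 2.51 and 5.07 for cytokines at 24 h, and miR-295 and miR-291b-3p 0.56 and −2.66 at 48 h. It also gave −0.10 for miR-294 and 2.4995 for miR-291b-3p over time, and 1.34 for miR-295 in the interaction.

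Leaving out 1 replicate in turn, these ranges crossed 0. At steady state miR-295 ran from −1.48 to 0.61, miR-367 from −1.68 to 1.67 and miR-294* from −2.81 to 1.54. For cytokines at 24 h miR-295 ran from −2.05 to 1.10 and miR-302c* from −2.51 to 4.04. At 48 h the ranges were −0.19 to 0.81 for miR-292-3p, −3.45 to 1.023 for miR-295, −4.08 to 0.25 for miR-302d, −7.29 to 0.35 for miR-302c* and −0.56 to 4.10 for miR-293*. There miR-294* ran from −3.25 to 3.24, miR-291a-5p from −7.27 to 6.14 and miR-291b-3p from −0.21 to 4.19. Over time they were −0.63 to 0.37 for miR-292-3p, −1.73 to 0.99 for miR-293, −0.50 to 3.97 for miR-295, −3.82 to 0.40 for miR-367, −3.23 to 4.40 for miR-302c* and −0.40 to 3.11 for miR-290-5p. For the interaction miR-295 ran from −2.67 to 1.80 and miR-302b from −0.73 to 3.79.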

Other observations

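Ct values in the normalized table lay close to whole cycles more often than an even spread would place them. Within 0.1 of a whole cycle, a band that covers 20.0% of a cycle, lay 43.3% of the 180 wells of the cluster assays with a Ct and 47.0% of the 8461 wells of the other miRNA assays. The shares were 46.5% of 159 and 47.4% of 7431 in the non-normalized table. Above Ct 30 the share for the cluster assays was 51.4% of 107 wells, and at 30 or under it was 31.5% of 73. Neither deposited table names a source for this pattern, and it is given as a value only.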
